A study of Homo sapiens with 4 samples.

Results

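SEMA3F, 3 of its relatives and 6 receptor genes of the same signalling system were followed in 22RV1 and PC3 prostate carcinoma cells with and without DDX52 knockdown. The 10 genes are SEMA3A, SEMA3B, SEMA3C and SEMA3F, the neuropilins NRP1 and NRP2, and the plexins PLXNA1, PLXNA2, PLXNA3 and PLXNB2, out of 60671 genes listed. They were selected on measured values, because SEMA3F was lower with DDX52 knockdown in PC3 cells and higher in 22RV1 cells, and the other 9 were added as its family and receptors. Their changes with DDX52 knockdown are therefore given as a description, without a test. The control values of SEMA3F are part of those changes, so its difference between the control cells is a description too.

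The experiment asked how the transcriptome of prostate cancer cells responds to silencing of DDX52, a DEAD-box RNA helicase. The 22RV1 cells are a human prostate carcinoma line with luminal features, and the PC3 cells are a human prostate carcinoma line from a metastasis. All 4 groups carried an shRNA delivered by a PLKO.1 lentivirus and were kept as puromycin-resistant populations: 22RV1 shCON and PC3 shCON carried a control sequence, and 22RV1 shDDX52 and PC3 shDDX52 carried a DDX52 sequence. Each group had 1 RNA-seq library, so differences lack a replicate check, and neither p-values nor errors are given. The DDX52 groups of both lines carried the same hairpin, and other hairpins or a rescue were not analysed here.

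Class 3 semaphorins are secreted guidance proteins. They bind neuropilins on the cell surface, and the neuropilins pair with A-type plexins, whose cytoplasmic part acts on small GTPases and the actin cytoskeleton. SEMA3F binds mainly NRP2 and SEMA3A binds mainly NRP1, while both neuropilins also serve as co-receptors of VEGF. SEMA3F and SEMA3B lie near each other on the short arm of chromosome 3, in a region known for losses in carcinomas, and SEMA3C has been studied as a growth-promoting ligand in prostate cancer.

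The promoter windows of the ligands SEMA3F and SEMA3B and of the SEMA3F receptor NRP2 are shown, 1 per gene, because these 3 genes were the members at least 1.5-fold lower with shDDX52 in PC3 cells, as 9.84% of all genes used there were. Each window holds 250 bases before and 50 after a RefSeq start on the plus strand of GRCh38.p14, and the capitals mark the letters CAGGTG or, on the other strand, CACCTG.
SEMA3F chr3:50154808-50155107: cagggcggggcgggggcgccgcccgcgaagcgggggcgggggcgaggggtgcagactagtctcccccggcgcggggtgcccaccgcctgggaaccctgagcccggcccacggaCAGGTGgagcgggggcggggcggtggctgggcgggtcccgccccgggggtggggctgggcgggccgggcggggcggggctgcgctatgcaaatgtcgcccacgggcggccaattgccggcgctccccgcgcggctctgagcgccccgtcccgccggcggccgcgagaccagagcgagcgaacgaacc
SEMA3B chr3:50267402-50267701: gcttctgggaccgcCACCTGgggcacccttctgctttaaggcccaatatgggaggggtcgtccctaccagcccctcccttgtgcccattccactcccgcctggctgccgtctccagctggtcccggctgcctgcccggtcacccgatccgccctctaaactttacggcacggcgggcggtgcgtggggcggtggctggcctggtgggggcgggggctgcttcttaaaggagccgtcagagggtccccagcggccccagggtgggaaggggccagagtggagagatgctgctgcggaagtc
NRP2 chr2:205682251-205682550: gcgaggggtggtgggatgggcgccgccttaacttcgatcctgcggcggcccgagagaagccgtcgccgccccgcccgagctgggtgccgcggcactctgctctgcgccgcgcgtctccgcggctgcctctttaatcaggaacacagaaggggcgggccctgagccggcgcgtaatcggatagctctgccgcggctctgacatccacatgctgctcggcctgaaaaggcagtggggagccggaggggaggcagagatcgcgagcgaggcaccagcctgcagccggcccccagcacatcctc
The SEMA3F window was 81.3% G and C with 44 CpG pairs, the SEMA3B window 68.7% with 18, and the NRP2 window 70% with 33. The median over all 35116 RefSeq windows of this length was 58.7% with 14 CpG pairs. CACGTG, the letters that MYC is known to bind, was in 0 of the 15 windows of the 8 members that had one and in 7.26% of all windows. CAGGTG on either strand was in 2 member windows and in 20.6% of all windows: it began 137 bases before the start in SEMA3F and 236 bases before it in SEMA3B. The window shown is the one nearest to the GENCODE 29 start, and it is the 1 of 3 SEMA3F windows and the 1 of 5 SEMA3B windows that holds these letters. GGGCGG on either strand, the core of the GC box, was in 11 member windows and in 45.0% of all windows, and overlapping copies were counted 12 times in the SEMA3F window, 4 times in that of SEMA3B and 3 times in that of NRP2. SEMA3A and NRP1 had no window in the table used. These matches describe letters only.

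Values are TPM, which divide by transcript length and so allow levels of different genes to be compared within a library. Where 4 values of a gene stand in a row, they are 22RV1 control, 22RV1 knockdown, PC3 control and PC3 knockdown, in that order, control meaning shCON and knockdown shDDX52. The log2 ratio is log2((TPM shDDX52 + 1) / (TPM shCON + 1)), and a gene was used in a comparison when it reached 1 TPM in either of its libraries. The library sums lay between 984448 and 990860 TPM, with 13504 to 13738 genes at 1 TPM or more. TPM does not keep the depth of sequencing. The targeted gene DDX52 stood at 4.88, 1.2, 9.2 and 2.07 TPM, so the knockdown libraries held 24.6% of the control level in 22RV1 and 22.5% in PC3. HOXB13, a prostate lineage gene, was at 89.87, 104.70, 39.86 and 34.06 TPM, and the luminal kallikreins KLK2 and KLK3 had 0 TPM in the PC3 libraries. Ribosomal RNA genes took 1.21%, 0.0872%, 0.0923% and 3.13% of TPM, so the PC3 knockdown library held the highest share. Mitochondrial genes took 9.81%, 13.0%, 8.10% and 10.3%, higher with shDDX52 in both lines, and nuclear protein-coding genes took 85.0%, 83.7%, 88.4% and 81.3%. The part of these shares in the results was not tested.

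SEMA3F was the most abundant of the 4 ligands in both PC3 libraries. In 22RV1 cells it was 7.46 TPM under shCON and 12.00 TPM under shDDX52, and in PC3 cells it was 146.43 TPM under shCON and 70.69 TPM under shDDX52. Both PC3 libraries lay above both 22RV1 libraries, and shDDX52 went with a higher level in the line where SEMA3F was low and a lower level in the line where it was high. In 22RV1 cells the shDDX52 level was 1.61 times the control (log2 ratio 0.62), and in PC3 cells it was 48.3% of the control (log2 ratio −1.04). These are the values that chose the gene. The log2 ratio in PC3 stood at percentile 3.13 of all genes used, and the one in 22RV1 at percentile 95.0. When TPM was rescaled to nuclear protein-coding genes, the log2 ratio in PC3 was −0.91, just under 2-fold, and the median of all genes in PC3 moved from −0.036 to 0.087. With log2 ratios taken relative to the median of all genes it was −1.0. SEMA3F (ENSG00000001617) spans 50155045 to 50189075 of chromosome 3 in GENCODE 29, plus strand.

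**Figure D1:**
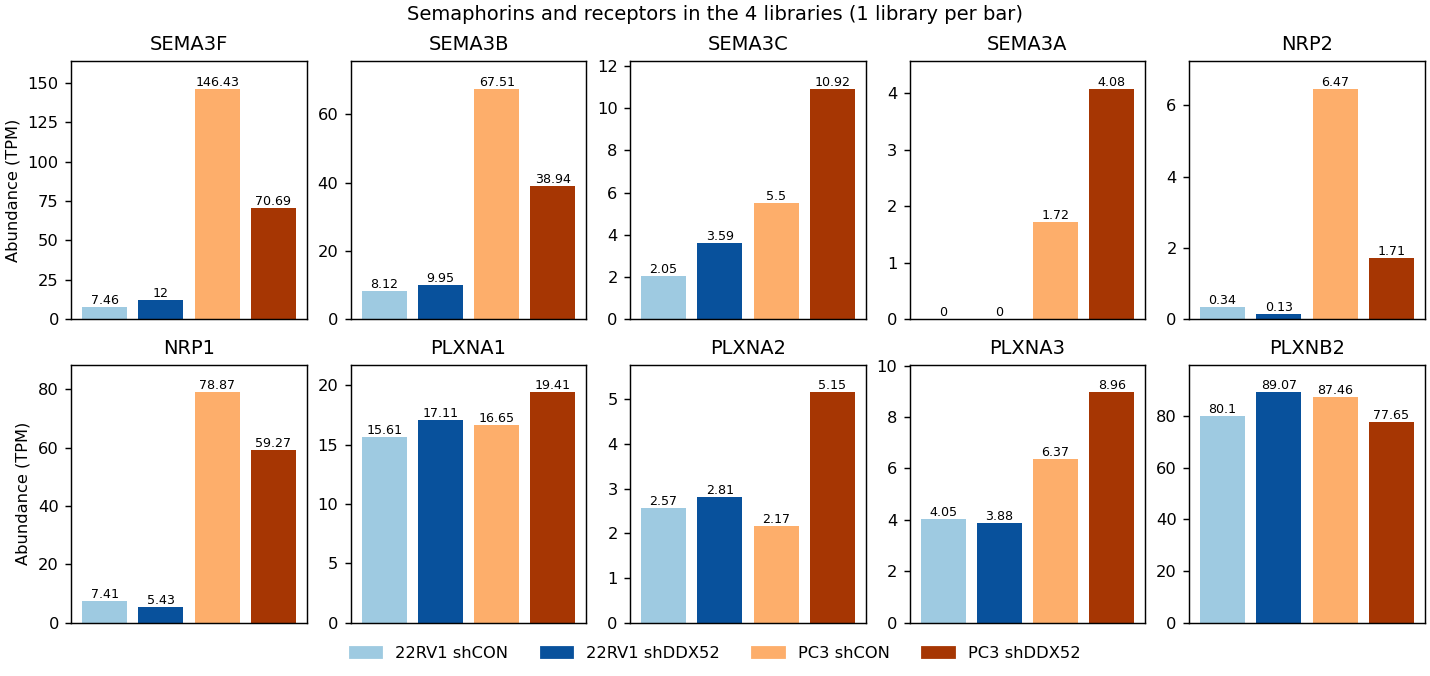
Abundance of the 10 genes in the 4 libraries, in TPM, with 1 bar per library and an own vertical axis from 0 for each gene. SEMA3F stands at 7.46, 12.00, 146.43 and 70.69 TPM, and PLXNB2 stays between 77.65 and 89.07 TPM.

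SEMA3B, a secreted semaphorin encoded 78.5 kb beyond the end of SEMA3F, had the same direction in each line. Its level was 8.12 TPM under shCON and 9.95 TPM under shDDX52 in 22RV1 cells, and 67.51 TPM under shCON and 38.94 TPM under shDDX52 in PC3 cells. The log2 ratio was 0.26 in 22RV1 and −0.78 in PC3, and the knockdown level in PC3 was 57.7% of the control. SEMA3B and SEMA3F were near each other in the 22RV1 libraries, where SEMA3F was 0.919 times SEMA3B with shCON and 1.21 times with shDDX52. In PC3 cells SEMA3F was 2.17 times SEMA3B with shCON and 1.82 times with shDDX52. SEMA3B spans 50267558 to 50277546 of chromosome 3, plus strand.

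SEMA3C and SEMA3A, the other ligands, were expressed at low levels and stood opposite to SEMA3F in PC3 cells. SEMA3C was 2.05 TPM under shCON and 3.59 TPM under shDDX52 in 22RV1 cells, and 5.50 TPM under shCON and 10.92 TPM under shDDX52 in PC3 cells. It was higher with shDDX52 in both lines, with log2 ratios of 0.59 in 22RV1, just past 1.5-fold, and 0.87 in PC3. SEMA3A was listed at 0 in the 22RV1 libraries, and PC3 cells had 1.72 TPM under shCON and 4.08 TPM under shDDX52, a log2 ratio of 0.90. The minus strand of chromosome 7 holds both genes, SEMA3C from 80742538 to 80922359 and SEMA3A from 83955777 to 84492724. Of the remaining class 3 genes, SEMA3D and SEMA3E were under 1 TPM in every library, and SEMA3G was 2.20, 2.08, 0.54 and 0.40 TPM.

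The summed level of the 7 class 3 semaphorins was 20.86 and 28.68 TPM in 22RV1 cells and 221.95 and 125.68 TPM in PC3 cells, with shCON and shDDX52. Most of it came from the chromosome 3 pair, which summed to 15.58 and 21.95 TPM in 22RV1 and to 213.94 and 109.63 TPM in PC3. SEMA3A and SEMA3C together were 2.05 and 3.59 TPM in 22RV1 and 7.22 and 15 TPM in PC3. The composition therefore differed as well as the total. SEMA3F made up 35.8% of class 3 semaphorin TPM in the 22RV1 control and 41.8% with shDDX52, against 66.0% in the PC3 control and 56.2% with shDDX52. In PC3 the share of SEMA3C went from 2.48% to 8.69% and that of SEMA3A from 0.775% to 3.25%, while SEMA3B kept 30.4% and 31.0%. Only RNA was measured, and secreted protein was not.

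**Figure D2:**
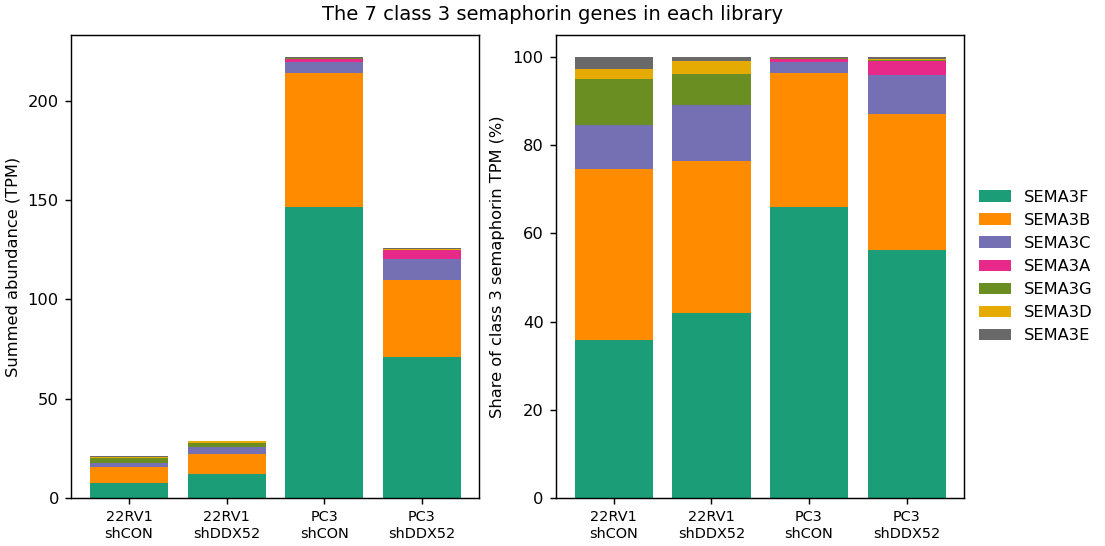
Class 3 semaphorin genes stacked in each library, as summed TPM on the left and as percent of their sum on the right, 1 library per bar. The sum falls from 221.95 to 125.68 TPM between the PC3 libraries and the SEMA3F share from 66.0% to 56.2%.

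The neuropilins, which hold the ligand at the membrane, were both lower with shDDX52 in PC3 cells, and NRP2 more so than NRP1. NRP2, the main SEMA3F receptor, was 0.34 TPM under shCON and 0.13 TPM under shDDX52 in 22RV1 cells, and 6.47 TPM under shCON and 1.71 TPM under shDDX52 in PC3 cells. It stayed under 1 TPM in 22RV1 and was not used there, and its log2 ratio in PC3 was −1.46, at percentile 1.19 of all genes used. NRP1, the main SEMA3A receptor, was 7.41 TPM under shCON and 5.43 TPM under shDDX52 in 22RV1 cells, and 78.87 TPM under shCON and 59.27 TPM under shDDX52 in PC3 cells. Its log2 ratios, −0.39 in 22RV1 and −0.41 in PC3, had 1 direction in both lines and did not reach 1.5-fold. NRP1 was the more abundant neuropilin in every library, at 21.8, 41.8, 12.2 and 34.7 times NRP2. The NRP2 share of neuropilin TPM was 7.58% in PC3 shCON and 2.80% in PC3 shDDX52. NRP2 spans 205681990 to 205798133 of chromosome 2 (plus strand) and NRP1 spans 33177492 to 33336262 of chromosome 10 (minus strand).

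PECAM1, an endothelial gene, was lower with shDDX52 in PC3 cells as NRP2 was, at 0, 0.02, 5.03 and 0.85 TPM over the 4 libraries. The 4 endothelial markers PECAM1, CDH5, VWF and TEK summed to 0.01 and 0.02 TPM in 22RV1, where 3 of 4 were listed at 0, and to 5.72 and 3.12 TPM in PC3, where 1 of 4 reached 1 TPM in each library. CDH5 and VWF went the other way in PC3, from 0.61 to 1.98 TPM and from 0.04 to 0.25 TPM, and TEK was 0.04 TPM in each PC3 library. The 5 fibroblast markers summed to 21.33, 12.24, 8.8 and 8.15 TPM over the 4 libraries. In 22RV1 most of the sum was LUM, at 16.54 TPM under shCON and 6.91 TPM under shDDX52. DCN was lower there too, at 1.87 and 0.28 TPM, and COL1A1 was higher, at 2.81 and 4.77 TPM. The 4 leukocyte markers summed to 10.93, 4.41, 38.51 and 35.96 TPM, nearly all of it CD68 in PC3, with CD3E at 0 and PTPRC at 0.16 and 0.39 TPM in PC3. VIM, a mesenchymal filament gene, was 8.08, 5.57, 12.61 and 66.68 TPM, and CD44, an adhesion molecule, was 17.06, 7.01, 571.07 and 664.01 TPM. The part of any of these in the semaphorin values was not tested. In bulk RNA, fewer cells that express a gene and less RNA per cell cannot be told apart.

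The plexins, which transmit the signal, stayed within 1.5-fold of their controls except for PLXNA2 in PC3 cells. PLXNA1 was 15.61, 17.11, 16.65 and 19.41 TPM, and its log2 ratio was 0.12 in 22RV1 and 0.21 in PC3. PLXNA2 was 2.57 and 2.81 TPM in 22RV1 and 2.17 TPM in PC3 shCON, and stood at 5.15 TPM in PC3 shDDX52. Its log2 ratio was 0.09 in 22RV1 and 0.96 in PC3, at percentile 96.9 of all genes used in PC3. PLXNA3 was 4.05 and 3.88 TPM in 22RV1 and 6.37 and 8.96 TPM in PC3, with log2 ratios of −0.05 and 0.43. The sign in 22RV1 turned to 0.03 when ratios were centred on the median of all genes. The 4 A-type plexins summed to 22.28, 23.85, 25.19 and 33.52 TPM, with PLXNA4 at 0.05 TPM in the 22RV1 libraries and at 0 in those of PC3. PLXNB2, a B-type plexin that binds class 4 semaphorins, was the most abundant plexin at 80.10, 89.07, 87.46 and 77.65 TPM, and its log2 ratio was 0.15 in 22RV1 and −0.17 in PC3. PLXNA1 lies on chromosome 3 from 126988594 to 127037392 (plus strand), PLXNA2 on chromosome 1 from 208022242 to 208244320 (minus), PLXNA3 on chromosome X from 154458281 to 154477779 (plus) and PLXNB2 on chromosome 22 from 50274979 to 50307627 (minus).

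**Figure D3:**
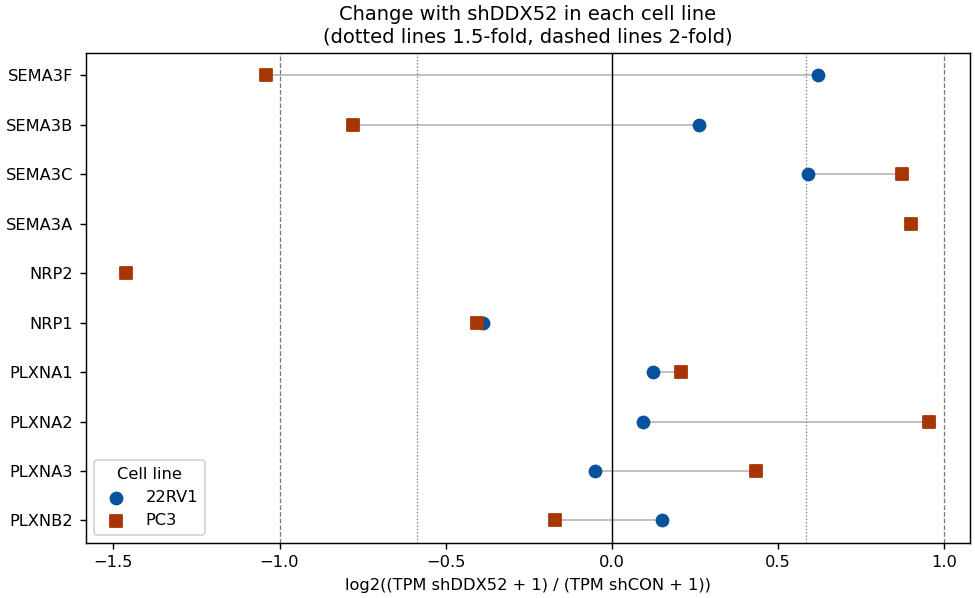
The log2 ratio of shDDX52 to shCON for each gene, with circles for 22RV1 and squares for PC3 and a grey line joining both where both were used. SEMA3F runs from 0.62 in 22RV1 to −1.04 in PC3, and NRP1 from −0.39 to −0.41.

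Counted by size in 22RV1, 8 of the 10 genes were used, 0 were at least 1.5-fold lower (8.47% of all 14438 genes used were) and 2, SEMA3C and SEMA3F, were at least 1.5-fold higher (5.61%). None was 2-fold lower or higher in 22RV1, beside 2.86% and 2.24% of all genes. In PC3 all 10 were used, 3 of them, SEMA3B, SEMA3F and NRP2, were at least 1.5-fold lower (9.84% of all 14262 genes used), and 3, SEMA3A, SEMA3C and PLXNA2, at least 1.5-fold higher (8.95%). SEMA3F and NRP2 were at least 2-fold lower in PC3 (3.44% of all genes) and 0 were 2-fold higher (2.86%). With TPM rescaled to nuclear protein-coding genes, SEMA3F left the 2-fold group, and PLXNA2, SEMA3A and SEMA3C, at log2 ratios of 1.10, 1.04 and 1.01, entered it. PLXNA2 and SEMA3A also passed 2-fold in PC3 with a pseudocount of 0.1, at 1.21 and 1.20, and without one, at 1.25 each. The median log2 ratio was 0.14 over the 8 in 22RV1, beside −0.076 over all genes, and 0.02 over the 10 in PC3, beside −0.036. As the genes were picked on these contrasts, nothing is read from the counts.

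Among 2738 genes with at least 50 TPM in either PC3 library, 1.53% were at least 2-fold lower, and SEMA3F was 1 of these 42. This limit was set after its level was known. At least 1.5-fold higher in 22RV1 and at least 1.5-fold lower in PC3 were 98 of the 12175 genes used in both lines (0.805%), 46 of them protein-coding. SEMA3F was the 1 of the 8 members used in both that was among them. As SEMA3F was selected for these directions, nothing is read from its place there. It ranked 68 of the 98 by the log2 ratio in PC3 minus that in 22RV1, from the most negative. SEMA3B had both directions too but did not reach 1.5-fold in 22RV1. Opposite signs of any size were found for 4 of the 8, beside 48.8% of all genes used in both lines.

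**Figure D4:**
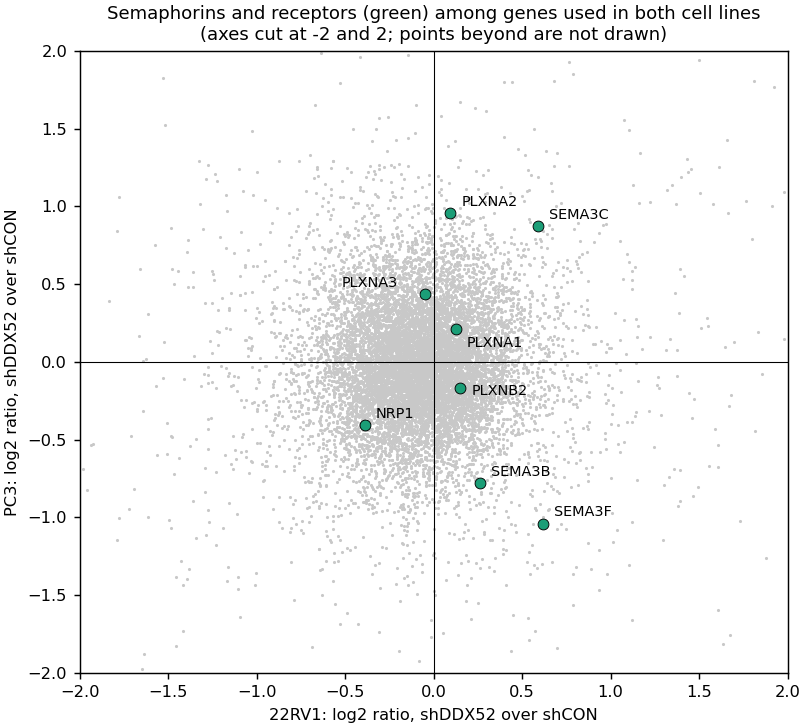
Log2 ratio of shDDX52 to shCON in 22RV1 (horizontal) and PC3 (vertical), 1 grey point per gene for 12048 genes inside the axes and green points for the 8 labelled genes used in both lines; 127 genes lie beyond. SEMA3F and SEMA3B sit in the lower right, and SEMA3C and PLXNA2 in the upper right.

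Between the control cells, the ligands and neuropilins among the 10 members were at least 2-fold higher in PC3 and no plexin was. The lines were deposited in separate TPM tables, so levels are set across tables here and no test was possible. SEMA3F was 19.6 times as high in PC3 shCON as in 22RV1 shCON, SEMA3B 8.31 times, SEMA3C 2.68 times, NRP1 10.6 times and NRP2 19.0 times, the last from 0.34 TPM. SEMA3A was listed at 0 in 22RV1 shCON and at 1.72 TPM in PC3 shCON. By the log2 ratio with 1 TPM added, 6 of the 10 genes were at least 2-fold higher in PC3 (19.9% of 15727 genes used) and 0 were at least 2-fold lower (21.3%). Without SEMA3F, whose control values are those of its selection, they were 5 of 9, and SEMA3A and NRP2 reached the 1 TPM filter through PC3 alone. The median log2 ratio was 1.27 over all 10 and 1.09 without SEMA3F, beside −0.067 for all genes. As both medians include SEMA3A and NRP2, nothing is read from these counts and medians. The 4 plexins lay between a log2 ratio of −0.17 for PLXNA2 and 0.55 for PLXNA3. The contrast holds for the members only. Outside them, the class 3 gene SEMA3G was lower in PC3, at 2.20 TPM in 22RV1 shCON and 0.54 TPM in PC3 shCON. PLXND1 was lower too, at 48.06 and 16.13 TPM, while PLXNB1 and PLXNB3 were higher in PC3 by less than 2-fold. In the shDDX52 libraries SEMA3F was 5.89 times as high in PC3, SEMA3B 3.91 times, SEMA3C 3.04 times, NRP1 10.9 times and NRP2 13.2 times. These are the same 4 values per gene as the changes with shDDX52, set in another order.

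The surroundings of SEMA3F on chromosome 3 were read to see whether neighbours moved with it. GENCODE 29 placed 34 listed genes, SEMA3F and SEMA3B included, wholly or partly within 250 kb of the SEMA3F start. Besides this pair, the 21 genes used in 22RV1 had log2 ratios from −0.46 to 0.18, with 0 past 1.5-fold. In PC3 the 17 used ranged from −0.77 to 0.14, and 1 was past 1.5-fold: RASSF1-AS1, an antisense RNA gene at 1.62 TPM under shCON and 0.54 TPM under shDDX52. The shares of all genes past 1.5-fold were 8.47% lower and 5.61% higher in 22RV1, and 9.84% lower and 8.95% higher in PC3. With so few neighbours, nothing is read from these counts past 1.5-fold. Below 0 were 16 of the 21 in 22RV1, with a median of −0.12 beside −0.076 over all genes, and 15 of the 17 in PC3, with a median of −0.14 beside −0.036. The share of all genes below 0 was not counted, so nothing is read from these counts. GNAI2, a G protein subunit gene that lies between SEMA3F and SEMA3B, was 349.49, 379.58, 259.3 and 256.77 TPM, and its log2 ratio was 0.12 in 22RV1 and −0.014 in PC3. The starts of SEMA3F and SEMA3B are 112.5 kb apart. SEMA3F-AS1, an antisense RNA gene over the start of SEMA3F, was 0.15, 0.04, 0.43 and 0.23 TPM. Whether reads were counted by strand is not given in the sources used here, so reads of an antisense pair cannot be told apart. SEMA3B-AS1, just before the start of SEMA3B on the other strand, was 6.93 and 8.01 TPM in 22RV1 and 0.15 and 0 TPM in PC3.

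**Figure D5:**
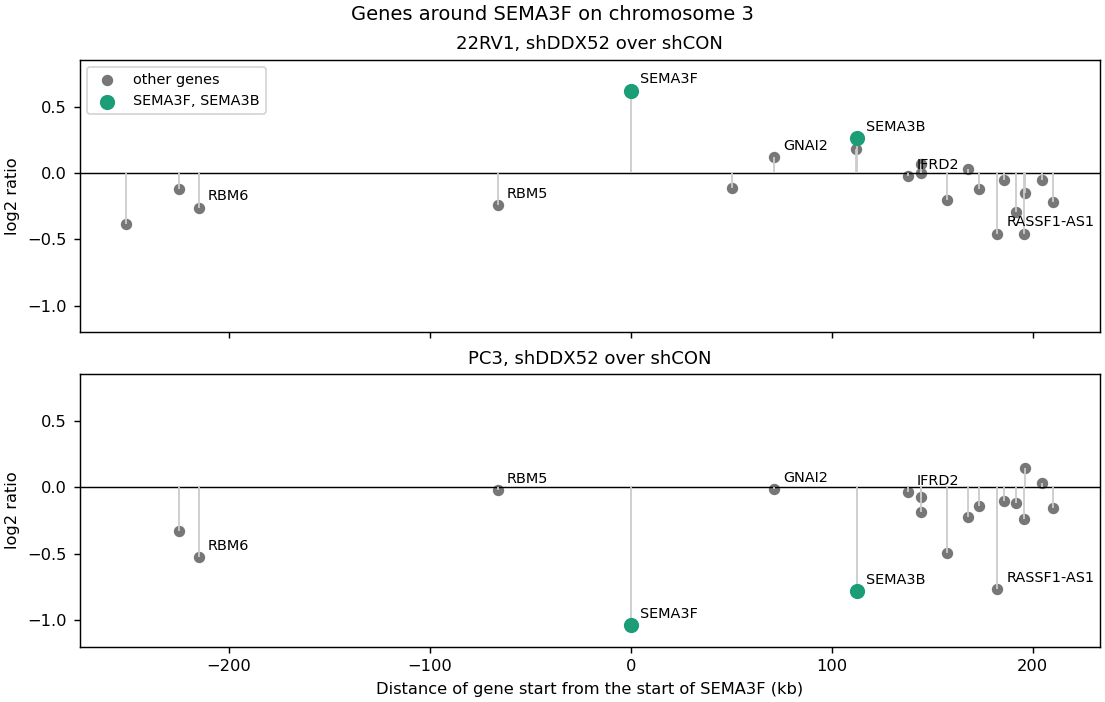
Log2 ratio of shDDX52 to shCON against the distance of each gene's start from that of SEMA3F in kb, for 22RV1 (top) and PC3 (bottom), with SEMA3F and SEMA3B in green and CACNA2D2, which starts 349 kb away, left out. GNAI2, between them, lies at 0.12 and −0.014.

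The genes whose pattern over the 4 libraries was most like that of SEMA3F were sought among 10014 protein-coding genes with at least 5 TPM in 1 library, by the Euclidean distance of log2(TPM + 1) centred on each gene's mean. The nearest 5 were FBXO2 (distance 0.298), SLC9C1 (0.309), HHIPL2 (0.460), VEPH1 (0.474) and KRT6A (0.482). FBXO2, an F-box protein of a ubiquitin ligase, was 1.91, 2.81, 49.15 and 27.13 TPM. SLC9C1, a sodium/proton exchanger of the sperm, was 3.46, 4.1, 69.95 and 32.51 TPM. KRT6A, an epithelial keratin, was listed at 0 in both 22RV1 libraries and was 10.87 and 5.55 TPM in PC3. The distance is set mostly by the gap between the lines, which all 5 share. Of the members, NRP1 ranked 104 (distance 0.843), SEMA3B 173 (0.958) and NRP2 666 (1.58), while PLXNB2 ranked 4844 (3.40).

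Beyond the 10 members, 74 further genes of semaphorin signalling were listed: other semaphorins, plexins, partner receptors, VEGF ligands, GTPase and cytoskeletal effectors and the proteases that cleave semaphorins. In 22RV1, 61 were used, 2 were at least 1.5-fold lower (RAP1A and MICAL2), beside 8.47% of all genes, and 6 at least 1.5-fold higher (SEMA4D, SEMA6B, L1CAM, FLT4, MET and DPYSL4), beside 5.61%. In PC3, 52 were used, 0 were at least 1.5-fold lower, beside 9.84% of all genes, and 8 higher (SEMA4D, SEMA4F, MET, RND1, MRAS, FARP2, MICAL2 and MICAL3), beside 8.95%. The median log2 ratio of those used was 0.09 in 22RV1 and 0.16 in PC3, beside −0.076 and −0.036 over all genes. No other plexin and no VEGF ligand reached 1.5-fold in either line.

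MICAL2, an oxidoreductase that disassembles actin filaments, was the 1 of the 74 that passed 2-fold in either line with the 1 TPM filter and 1 TPM added. It was 31.14 and 20.24 TPM in 22RV1 and 16.21 and 34.10 TPM in PC3, with log2 ratios of −0.60 and 1.03, so its directions were opposite to those of SEMA3F. SEMA4D, a membrane semaphorin that binds PLXNB1, was higher with shDDX52 in both lines, at 2.76 and 4.75 TPM in 22RV1 and 2.53 and 4.38 TPM in PC3. MET, a receptor tyrosine kinase that associates with B-type plexins, was 0.35 and 1.38 TPM in 22RV1 and 11.79 and 22.72 TPM in PC3. Without the added 1 TPM its 22RV1 levels differed 3.94-fold, and with it the log2 ratio was 0.82. Other pseudocounts were not run over the 74. SEMA4D and MET were picked after their values were seen, as past 1.5-fold in both lines.

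Among the most abundant gene of each list, L1CAM, an adhesion molecule that partners NRP1, was 3.26, 5.81, 64.06 and 89.81 TPM. SEMA6B, a membrane semaphorin, was 3.97, 6.89, 64.83 and 51.45 TPM. VEGFB was 9.59, 13.43, 86.59 and 72.42 TPM. FURIN, a protease that cleaves class 3 semaphorins, was 21.33, 22.05, 38.48 and 34.77 TPM, and CFL1, the actin-severing cofilin, was 1548.46, 1581.81, 2417.29 and 2438.36 TPM. Neither moved by 1.5-fold with shDDX52. Like SEMA3F, these 5 genes were higher in both PC3 libraries than in both 22RV1 libraries. PLXNB2, the most abundant of the neuropilins and plexins, was not, at 80.10, 89.07, 87.46 and 77.65 TPM. PLXND1, the most abundant plexin outside the members, was lower in both PC3 libraries, at 48.06, 65.62, 16.13 and 14.75 TPM. Abundance was ranked by the mean TPM of the 4 libraries, which favours genes high in 1 line, so nothing is read from the shared pattern. The 74 genes went both ways: of 62 used between the control libraries, 16 were at least 2-fold higher in PC3 and 15 at least 2-fold lower. The shares of all genes were 19.9% and 21.3%.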

How the data were processed

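RNA was sequenced from 4 libraries, 1 per cell line and shRNA. The authors deposited TPM values per Ensembl gene in 1 table per cell line, rounded to 2 decimals. The submitters' processing notes name CASAVA, HISAT2 and hg19, and the quantification program and annotation are not given in the sources used here. Each column matched 1 library by its label. The 10 genes and all lists were chosen with earlier results of these data known. Of the 60671 identifiers, 42020 had a symbol and 58453 were in GENCODE 29 on GRCh38, from which gene positions were taken through the identifiers and not through coordinates of the authors. Log2 ratios used a pseudocount of 1 TPM and genes of at least 1 TPM in either library, which understates changes of low genes. Without replicates, genes were described by 1.5-fold and 2-fold differences beside the share of all genes past them.

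Named genes were the 10 members, list genes past 2-fold in either line, the most abundant gene of each list, the 5 genes most like SEMA3F, DDX52 and the markers fixed for cell types. SEMA4D, MET, EPHA10, ROBO4, PLXND1, PLXNB1, PLXNB3, the genes around SEMA3F and list genes named beside their counts were named after their values were seen. The 50 TPM limit, the chromosomal surroundings and the promoter windows were chosen after seeing the data, as were RNA sums and shares. The computation was tested on simulated data. Alternatives covered pseudocount, filter and scaling. The scripts ran on pandas 2.3.3 and numpy 2.4.6 in Python 3.11.15, with matplotlib 3.10.9 for plots. Some of the marker genes checked are not reported here.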

Additional observations from a re-analysis of the deposited data

Results flagged for a closer look

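Of the 8 members used in both lines, 4 had opposite signs of the log2 ratio in 22RV1 and PC3, beside 48.8% of all genes used in both. Centred on the median of all genes it was 3 of 8, since PLXNA3 in 22RV1 was then 0.03. The log2 ratio in PC3 minus that in 22RV1 was −1.66 for SEMA3F, −1.04 for SEMA3B, 0.48 for PLXNA3 and −0.32 for PLXNB2. With 1 library per condition these differences were not tested, and SEMA3F was selected for its own. PLXNA3 and PLXNB2 stayed under 1.5-fold in both lines.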

How the results depend on the processing

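Over 35 results, 204 values were recomputed under 7 alternatives of pseudocount, filter and scaling: 182 stayed near the reported value, 22 moved, and 0 called values changed sign. Of 173 log2 ratios, 171 kept their sign. The exceptions were PLXNA3 in 22RV1, which was 0.03 when centred, and the members' median in PC3, which was −0.17 with a filter of 5 TPM. SEMA3F ranged from −1.05 to −0.91 in PC3, from 0.62 to 0.70 in 22RV1 and from 4.09 to 4.29 between the control libraries. NRP2 in PC3 ranged from −1.92 to −1.42. Genes at least 2-fold lower or higher in 22RV1 numbered 736, and 328 over nuclear protein-coding genes, 300 with a filter of 5 TPM, 1186 without a pseudocount and 1365 with one of 0.1. In PC3 they numbered 898, and 443, 449, 1441 and 1580 in the same order, and 96 with a filter of 50 TPM that was added after seeing the data. The filters and the restriction to protein-coding genes leave fewer genes, and a smaller pseudocount widens the ratios of low genes. In PC3 the split was 490 lower and 408 higher, and 169 lower and 274 higher with TPM over nuclear protein-coding genes, for which the cause was not tested. Members at least 1.5-fold changed in 22RV1 went from 2 to 1 with a filter of 5 TPM, since SEMA3C lies under it. Without a pseudocount and with one of 0.1, 6 further single-gene values each moved, 5 up and 1 down. No paired analysis was possible because there is just 1 library for each condition. TPM carries no depth, so the counting error of low values such as those of SEMA3A, NRP2 and PLXNA2 is unknown.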

Other observations

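Of 39 genes of other guidance families (slits and ROBO receptors, netrins and their receptors, ephrins and EPH receptors), 23 were used in 22RV1 and 19 in PC3. Past 1.5-fold in 22RV1 were 0 on the lower side and 1, EPHA10, on the higher side, beside 8.47% and 5.61% of all genes. In PC3, EPHA2 was at least 1.5-fold lower and ROBO4 and EPHA10 were at least 1.5-fold higher, beside 9.84% and 8.95% of all genes. EPHA2, a receptor tyrosine kinase for ephrin-A ligands and the most abundant gene of the list, was 16.59 TPM under shCON and 22.30 TPM under shDDX52 in 22RV1, and 148.03 and 97.71 TPM in PC3. EPHA2 was higher in both PC3 libraries, and its log2 ratios of 0.41 and −0.59 had opposite signs, as 48.8% of all genes used in both lines had. The list went both ways between the control libraries. Of 26 genes used there, 7 were at least 2-fold higher in PC3 and 9 at least 2-fold lower, beside 19.9% and 21.3% of all genes. EPHA10 was 1.41 and 3.21 TPM in 22RV1 and 1.41 and 2.78 TPM in PC3, and ROBO4, which was listed at 0 in 22RV1, was 4.92 and 9.06 TPM in PC3. EPHA10 and ROBO4 were named after their values were seen.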
